A study of Mus musculus with 32 samples.

Results

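The genes of the cytosolic ribosome were followed through mouse hair follicles, interfollicular epidermis and epidermal organoids. Members were the gene rows whose symbol has the form of a large- or small-subunit ribosomal protein gene, together with Rplp0, Rplp1, Rplp2 and Rpsa. That form is Rpl or Rps with a number, optionally followed by a letter and a further number. Rows named as pseudogenes, such as Rps19-ps3, were left out. The rule used symbols and no measured value. It gave 83 members, 50 of the large and 33 of the small subunit, among 19974 gene rows of all files, and 82 of them are protein-coding in GENCODE M21. The exception is Rps4l, which that annotation calls a transcribed processed pseudogene. The ribosomal protein gene Fau, whose symbol does not follow the form, is given with the related genes at the end. Rpl36al, whose symbol has a further letter, did not match either and is not among the members, though it had counts.

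The 32 libraries came from mice of strain Bl/6 and were made by CEL-seq2, which sequences a tag near the 3′ end of polyadenylated RNA. Tissue groups, with 3 libraries each, were hair follicles in anagen (the growth phase), a mixture of anagen and telogen (resting) follicles, and cells of the interfollicular epidermis sorted as positive for Itga6 and Sca1. Organoids are epidermal cells grown as small 3-dimensional bodies, here taken 7 days into culture or after the last passage. Early organoids were at passages 7 to 12, within 3 months, in forskolin (an activator of adenylate cyclase) plus Fgf10 (4 libraries), plus Fgf1 (2) or plus a TGF-beta inhibitor (4), or in that inhibitor without forskolin (2). Unpassaged organoids had 1 library in each of these 4 media and 1 in forskolin alone. Late organoids were at passages 23 to 30, within 6 months, in forskolin with Fgf1 (6 libraries). Nothing in the labels ties replicates to separate animals or cultures. The p-values therefore set a difference only against the spread among these samples, estimated over all groups of a fit. Part of that spread may be technical. The labels give no age and no allele. The RNA was of bulk cells, so fewer cells of a type and less RNA per cell cannot be told apart.

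Each cytosolic ribosome joins a small subunit, which reads the messenger RNA, to a large subunit, which forms the peptide bond. Nearly every ribosomal protein is needed once per ribosome, so cells make them in matched amounts, largely by controlling translation of their messenger RNAs together. A few members have tissue paralogs that can take their place, such as Rpl22l1 for Rpl22. In humans, loss of 1 copy of many of these genes causes Diamond-Blackfan anaemia, and in mice mutations of Rps19 and Rps20 darken the skin. Ribosomal protein genes have many processed pseudogenes, which are copies of the messenger RNA pasted into the genome, and a short read from the parent can match a copy equally well.

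Such sharing can affect the counts of a member, so the ends of 5 members are shown beside the 5 pseudogene rows with the highest mean level in mixed follicles. The sequences are the last 60 coding bases before the stop codon, read 5′ to 3′ on the coding strand from GENCODE M21 (GRCm38, the assembly of mm10). Capitals mark bases that differ within a pair. Rps19 (chr7:24884371-24889806, plus strand) and Rps19-ps3 (chr4:147821777-147822202, minus strand) differed at 3 bases. Rpl31 (chr1:39367842-39371911, plus strand) and Rpl31-ps12 (chr16:16819749-16820123, minus strand) differed at 1 base. Rpl37 (chr15:5116645-5119140, plus strand) and Rpl37rt (chr5:115102923-115110268, minus strand), a transcribed processed pseudogene, also differed at 1 base. Rps15a (chr7:118104372-118116188, minus strand) and Rps15a-ps6 (chr11:6172644-6173036, minus strand), like Rpl14 (chr9:120571444-120574654, plus strand) and Rpl14-ps1 (chr7:45324965-45325617, plus strand), had 0 differences in these bases, so each sequence is printed once for the pair.
Rps19: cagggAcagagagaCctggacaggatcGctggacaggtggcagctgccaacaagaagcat
Rps19-ps3: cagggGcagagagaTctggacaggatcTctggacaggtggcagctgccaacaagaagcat
Rpl31: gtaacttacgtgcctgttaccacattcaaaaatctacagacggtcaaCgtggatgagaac
Rpl31-ps12: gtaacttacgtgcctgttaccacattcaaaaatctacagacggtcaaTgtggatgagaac
Rpl37: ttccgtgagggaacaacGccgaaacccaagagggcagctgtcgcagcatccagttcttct
Rpl37rt: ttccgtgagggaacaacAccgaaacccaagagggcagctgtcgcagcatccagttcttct
Rps15a: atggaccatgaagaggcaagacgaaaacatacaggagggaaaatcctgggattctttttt
Rpl14: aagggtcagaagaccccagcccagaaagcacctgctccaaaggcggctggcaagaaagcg

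A copy was counted where an annotated pseudogene aligned to at least 80% of a member's coding sequence at 90% identity or more. Over the 82 members with a coding transcript the median was 8 copies and the highest 76 (Rpl21). In all 60 members had 5 or more, and 5 had none, among them Rplp2, Rpl8, Rps3 and Rpl39l. Rplp2 had no copy under this rule, although a row named Rplp2-ps1 was listed. The files themselves listed 20 pseudogene rows whose best match was a member.

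Library totals ran from 412582 to 3351435 counts (median 1505354). The files fell into 11 sets with identical lists of gene rows, which is a property of the files and not a label. The first set held the 5 unpassaged libraries with replicate 1 of early organoids in forskolin with Fgf10 and with Fgf1. The second held the other 10 early libraries, anagen and mixed follicles each had their own set, each epidermis library had its own, and late organoids were spread over 4. For the follicle groups, tissue and set of files therefore cannot be told apart. The sample numbers fall into 2 runs: epidermis and late organoids have the later run and all other groups the earlier one. In epidermis against either follicle group, and in late against early organoids, group and run cannot be told apart. Each of the 38 replicate pairs differed beyond sampling noise (chi-square per degree of freedom 3.47 to 69.5). Markers of the labelled tissues were present: 10 of 10 genes of the inner root sheath and hair summed to 46991 to 62933 CPM (counts per 1e6 counts of the library total, spike-ins left out) in anagen and 10895 to 26312 CPM in mixed follicles, but 16.6 to 24.3 CPM in epidermis, and 8 of 8 basal keratinocyte genes summed to 32024 to 34426 CPM in epidermis. The mixed follicle libraries stood apart in 5 of 5 red blood cell genes (55.2 to 179.9 CPM against at most 5.92 CPM in any anagen or epidermis library).

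The tags lie near the 3′ end, so CPM were not divided by transcript length. How reads that match several genes were counted is not given in the sources used here, so levels of different members are set side by side only as the counts each row received. In all 75 members were listed in every library, 74 had a count in every library, and 63 were at or above 100 CPM in every library. Among the most abundant by mean CPM over the 32 libraries were Rpl4 (10652 CPM), Rpl41 (5673 CPM), Rpl23 (5269 CPM) and Rpl13 (4899 CPM). At the other end 7 members stayed under 5 CPM in every library outside mixed follicles: Rpl10l, Rpl26, Rpl30, Rpl34, Rpl39l, Rplp2 and Rps27. Of these, Rpl26, Rpl30, Rpl34, Rplp2 and Rps27 encode parts of every ribosome, while most of their partners in the same subunits were above 100 CPM in every library.

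The 3′ ends of most of the low core members recur elsewhere. Of the 50-base windows in the last 300 bases of the transcript, 100% for Rps27, 80.9% for Rpl30, 64.1% for Rpl26 and 54.2% for Rpl34 occurred exactly in a transcript of another gene. The share was also 100% for Rpl10, which stood at 1883 to 7303 CPM, and it was 6.37% for Rplp2. The part of shared reads in these levels was not tested. Across 82 members the number of copies had Spearman correlations of 0.056 with the mean level and 0.062 with the ratio of mixed to anagen follicles, which are descriptions over genes that share the same libraries. No member was at 0 throughout 1 set of files and above 100 CPM in another.

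Ribosomal protein genes took the largest share of counts in sorted epidermis. Their summed share was 24.1, 27.8 and 25.5% in the 3 epidermis libraries, a mean of 25.8 ± 1.85% (SD, n = 3). In the 6 late organoid libraries it was 15.8, 18.2, 13.4, 17.99, 19.2 and 18.6%, a mean of 17.2 ± 2.21% (SD, n = 6). Each epidermis library was above each late library. The 3 epidermis libraries came from 3 sets of files, none of them shared with another group. Anagen follicles gave 13.5, 14.96 and 9.98% and mixed follicles 13.9, 17.9 and 9.92%, and these groups overlapped. Among early organoids the means were 13.6% in forskolin plus Fgf10, 12.5% in forskolin plus Fgf1, 12.4% in forskolin plus TGF-beta inhibitor, and 14.3% in the inhibitor without forskolin. The unpassaged libraries stood at 12.9% in forskolin alone, 16.5% once Fgf10 was added, 15.1% for Fgf1, 12.1% for forskolin plus inhibitor and 12.2% for inhibitor without forskolin, each with an exact 95% binomial (Clopper-Pearson) interval no wider than ± 0.0692 points, which covers counting error only. Large-subunit members made up 15.2% and small-subunit members 10.6% of counts in epidermis, against 7.79% and 5.03% in anagen follicles, 8.02% and 5.89% in mixed follicles and 10.7% and 6.45% in late organoids. The share is a summed score over the members and was not tested.

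**Figure D1:**
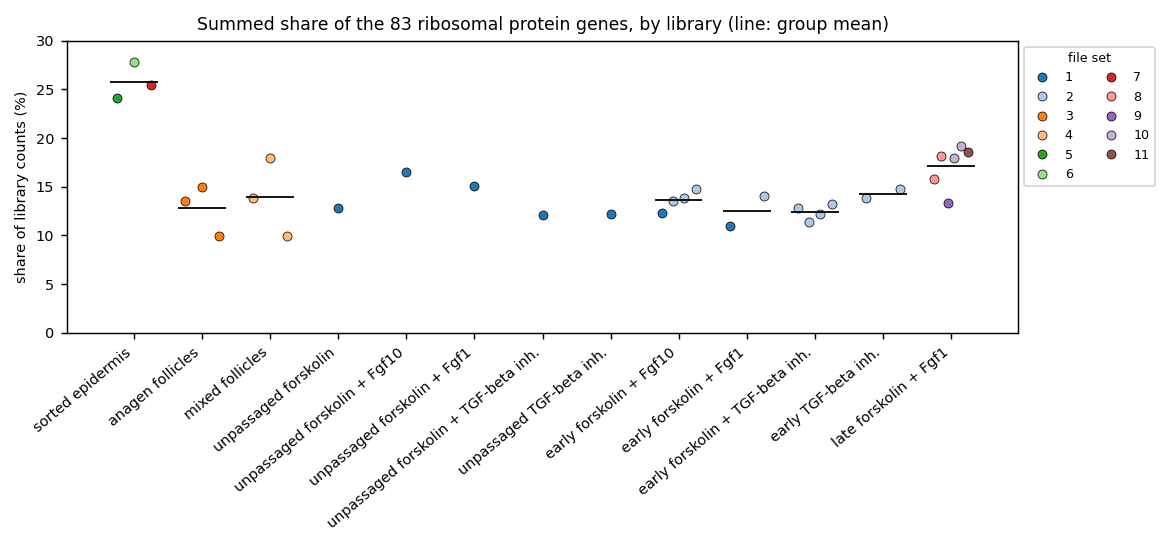
Share of each library's counts (percent, y axis) held by the 83 ribosomal protein genes, by group (x axis). Points are libraries coloured by their set of files, and the line is the group mean. The 3 epidermis libraries lie at 24.1, 27.8 and 25.5%, above every other library.

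The comparison of tissues asked how the growing follicle and the interfollicular epidermis differ in these genes. Of 77 members that passed the filter on low counts, 14 were higher and 2 lower in epidermis than in anagen follicles (edgeR quasi-likelihood test, Benjamini-Hochberg adjusted p under 0.05), against a background of 14.8% higher and 19.4% lower among all 10843 genes. The median log2 fold change was 0.58 over the members and -0.15 over all genes, and 57 of 77 members had a positive value. Of 45 large-subunit members 7 were higher and 1 lower, and of 32 small-subunit members 7 were higher and 1 lower. Rps19, Rpl14, Rps15a and Rps2 had the largest log2 fold changes among the 14. With library totals in place of TMM scaling (trimmed mean of M-values), 32 members were higher and 0 lower, and the median of all genes moved from -0.15 to 0.28. Markers of other cells moved with this comparison. Beside the hair genes given above, 6 of 6 melanocyte genes summed to 70.8 to 269 CPM in anagen follicles and 2 of 6 to 8.51 to 25.9 CPM in epidermis (Mlana, Pmel, Tyr and Tyrp1 at 0). In the other direction 8 of 8 immune genes summed to 376 to 719 CPM in epidermis and 4 of 8 to 3.29 to 13.1 CPM in anagen follicles (Cd207, Cd3e, Cd3g and Ptprc at 0), and basal keratinocyte genes to 370 to 2511 CPM in anagen follicles. Their part was not tested.

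Rps19, a protein of the small-subunit head needed for maturation of the small subunit's RNA, is described first. Its level was 1694, 1393 and 1600.1 CPM in the epidermis libraries and 139, 159.8 and 87.2 CPM in the anagen libraries. The groups did not overlap. The 3 epidermis libraries came from 3 sets of files, but none is shared with anagen follicles, and group and run cannot be told apart here. The log2 fold change was 3.10 ± 0.45 with adjusted p = 6.5e-05, and the call held in 15 of 15 alternative settings. In mixed follicles Rps19 stood at 824, 1217 and 568 CPM, again above every anagen library (log2 fold change -3.31 ± 0.45, adjusted p = 1.2e-04 for anagen against mixed). Between epidermis and mixed follicles the CPM ranges did not overlap, but the fitted difference did not pass the test (log2 fold change -0.21 ± 0.41, adjusted p = 0.74).

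In culture Rps19 was low in unpassaged and early organoids. The 5 unpassaged libraries held 98.4 to 167 CPM, and the 12 early libraries 73.4 at the lowest, 92.2 at the median and 135 CPM at the highest. Late organoids reached 467, 567, 457, 1165, 879 and 787 CPM. Every late library was above every early and unpassaged library, and above every anagen library. By mean level the order was epidermis (1562 ± 154 CPM, SD, n = 3), mixed follicles (869.7 ± 327, n = 3), late organoids (720.3 ± 277, n = 6), anagen follicles (129 ± 37.4, n = 3) and early organoids with Fgf1 (92.4, n = 2). Mixed follicles and late organoids overlapped, as did anagen follicles and early organoids.

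**Figure D2:**
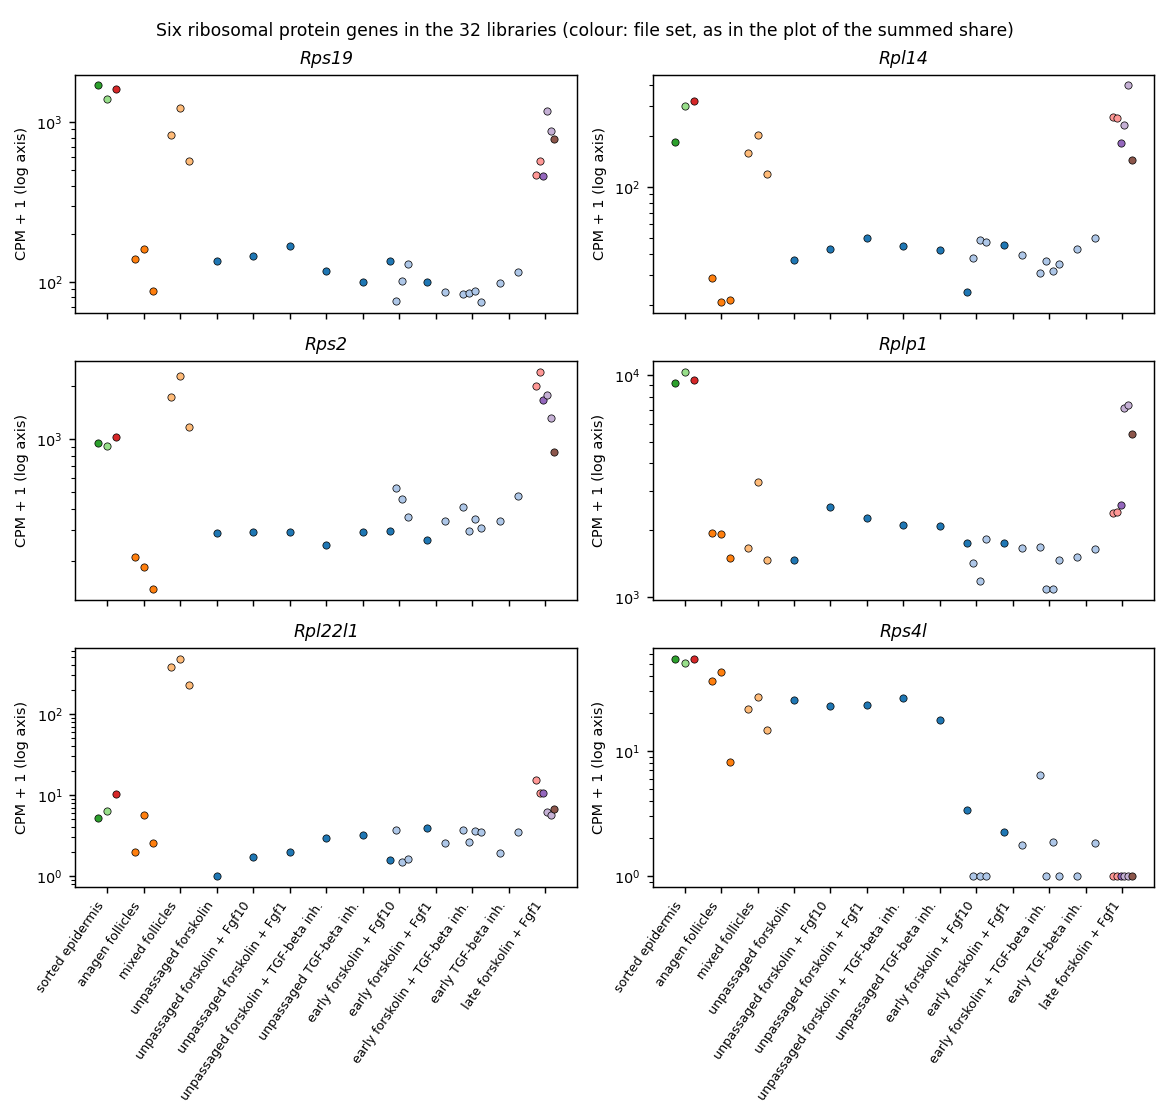
Levels of Rps19, Rpl14, Rps2, Rplp1, Rpl22l1 and Rps4l (CPM + 1, log axis) in each library by group (x axis). Points are libraries coloured by set of files. Rps19 reaches 1393 to 1694 CPM in epidermis and 457 to 1165 CPM in late organoids, and Rps4l is at 0 in the 6 late libraries.

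Rpl14, a large-subunit protein, was like Rps19 in being low in anagen follicles and early organoids. Unlike Rps19, its epidermis libraries overlapped with mixed follicles and late organoids. It stood at 183, 297 and 320.0 CPM in epidermis, 27.7, 19.7 and 20.5 in anagen follicles, 158, 201 and 118 in mixed follicles and 257, 254, 179.7, 232, 396 and 144 in late organoids, while the 12 early libraries held 22.9 to 48.9 CPM. Anagen and early libraries were thus below every library of the other 3 groups. The difference between epidermis and anagen follicles passed the test (log2 fold change 3.00 ± 0.42, adjusted p = 4.8e-05).

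Rps2, at the entry of the messenger RNA channel, was 943, 907 and 1023 CPM in epidermis and 211, 183 and 138 CPM in anagen follicles (log2 fold change 1.90 ± 0.39, adjusted p = 0.0011). It was higher still in mixed follicles, at 1748, 2288 and 1174 CPM (-1.92 on the log2 scale for epidermis against mixed follicles, a call lost with library totals as the scale), and in late organoids the libraries held 2004, 2412, 1666, 1785, 1321 and 843 CPM. Of the other abundant members chosen by size of change, Rpl19 was 964 to 1433 CPM in anagen follicles and 4169.6 to 5555 CPM in epidermis (1.45 on the log2 scale). Rps15 was 499.7 to 769.8 CPM in anagen follicles and 2203 to 2552 CPM in epidermis (1.33). For both the ranges of the groups did not overlap, but each call was lost with no filter on low counts and without anagen replicate 1, among others.

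Rpl12 and Rps6 went the other way. Rpl12, of the stalk base, was 1724, 2168 and 1939 CPM in epidermis and 2812, 3549 and 2486 CPM in anagen follicles (log2 fold change -1.16 ± 0.40, adjusted p = 0.034). Rps6, the best known phosphorylated protein of the small subunit, was 1886, 2270.4 and 2105 CPM in epidermis and 3212, 3556 and 2693 CPM in anagen follicles (log2 fold change -1.15 ± 0.41, adjusted p = 0.039). In both the groups did not overlap in CPM. Both calls were lost with library totals as the scale (log2 fold changes of -0.60 each), with no filter on low counts, with only these groups in the fit, without any 1 of the 3 epidermis libraries and without anagen replicate 2 or 3.

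Mixed follicles differed from anagen follicles mainly in a subset of members that were high in the mixture. Of 77 members tested, 22 were lower in anagen follicles and 0 higher, with backgrounds of 5.42% lower and 1.21% higher. The median was -0.72 over members, also with Rplp2 at the bound its counts allow, and 0.09 over all genes, and 28 members had an unadjusted p under 0.05. With library totals as the scale 16 were lower and 0 higher, with medians of -0.18 over members and 0.64 over all genes. In epidermis against mixed follicles 19 were lower and 3 higher in epidermis, with backgrounds of 18.5% lower and 11.9% higher, and medians of -0.46 over members and -0.08 over all genes. These comparisons share the mixed follicle libraries. With library totals as the scale the epidermis comparison turned to 22 higher and 10 lower, the member median to 0.59 and the median of all genes to 0.92, so the direction of the whole set depends on the scale there.

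Rps15a and Rpl32 were among the members higher in the mixture. Rps15a, a small-subunit protein, held 179.8, 293 and 164 CPM in mixed follicles, 6.80, 9.86 and 3.08 in anagen follicles and 61.7, 62.2 and 42.5 in epidermis. Rpl32, of the large subunit, held 1422, 1933 and 998 CPM in mixed follicles, 136, 149 and 107 in anagen follicles and 198, 277 and 187 in epidermis. For both the mixture lay above every other library of the series. Log2 fold changes of anagen against mixed follicles were -5.66 for Rps15a and -3.99 for Rpl32, and those of epidermis against mixed follicles -3.02 and -3.77.

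Rpl36a was 848, 1172 and 575 CPM in mixed follicles against 77.8, 114 and 66.2 in anagen follicles and 217, 318 and 252 in epidermis (-3.85 for anagen and -2.77 for epidermis against mixed follicles on the log2 scale). Other members lower in anagen than in mixed follicles were Rps2 (-3.82), Rpl29 (-3.72), Rpl31 (-3.48), Rps23 (-3.42), Rpl14 (-3.32), Rpl37 (-2.96), Rpl21 (-2.44), Rpl39 (-2.20), Rpl37a (-1.94), Rpl7a (-1.71), Rpl17 (-1.54), Rps12 (-1.52) and Rps20 (-1.51). With library totals as the scale the calls of Rpl37a, Rpl7a, Rpl17, Rps12 and Rps20 were lost, and without anagen replicate 1 or 2 those of Rpl17, Rps12 and Rps20. Not every abundant member followed: Rpl3 was 921, 1305 and 611 CPM in mixed follicles and 6034, 5269.6 and 5669.9 CPM in epidermis (log2 fold change 1.53 ± 0.43, adjusted p = 0.012). Rpl4 (1.501) and Rpl27a (1.32) were also higher in epidermis, though both calls were lost when any 1 of the 3 mixed libraries was left out, and those of all 3 with no filter on low counts.

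The same libraries held the highest pseudogene counts. The 20 pseudogene rows with a member as parent summed to 0.201 to 0.387% of counts in mixed follicles and to at most 0.0323% in any other library. Rpl31-ps12 averaged 1339.9 CPM there (729.9 to 1841), which was 77.5% of the counts of Rpl31 and this copy together. Rpl37rt averaged 605 CPM (89.4% of its pair), Rps15a-ps6 533 CPM (70.5%) and Rpl14-ps1 189 CPM (54.3%). Rps19-ps3 took 91.97 CPM, or 8.77% of its pair, against 18.7 CPM in epidermis, 4.24 in anagen follicles and 7.91 in late organoids. In the sequences printed above these pairs differ by 3 bases at most.

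**Figure D3:**
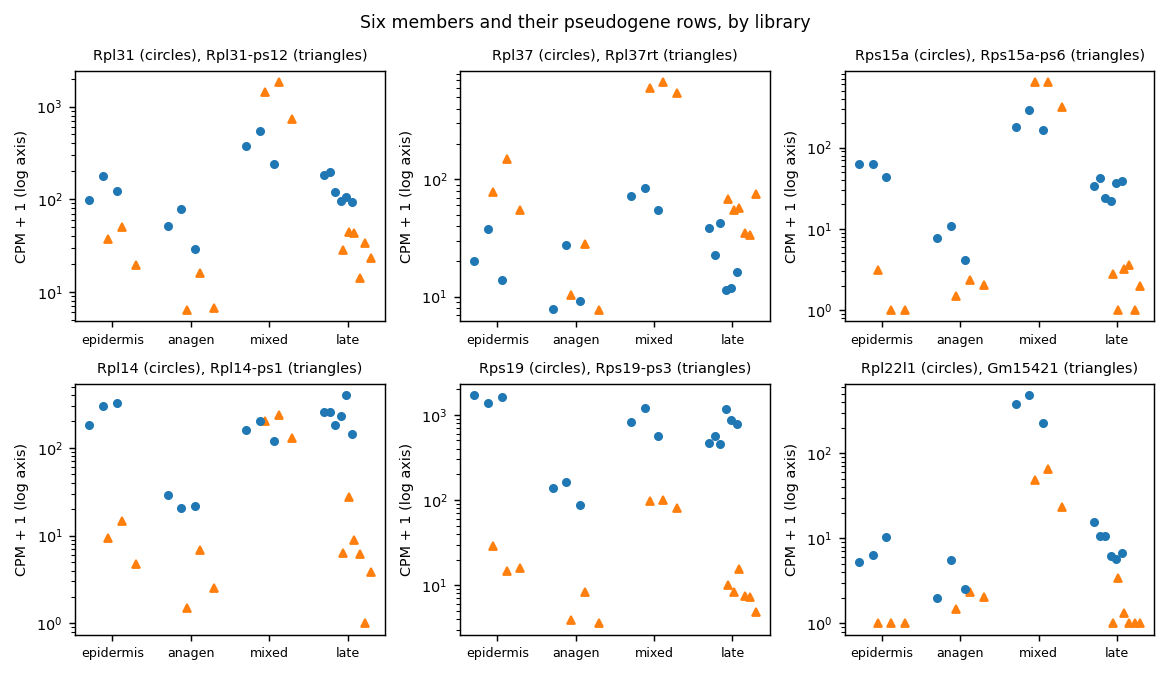
Levels (CPM + 1, log axis) of 6 members (circles) and their pseudogene rows (triangles) in epidermis, anagen follicles, mixed follicles and late organoids (x axis). Points are libraries. Rpl31-ps12 stands at 729.9 to 1841 CPM in mixed follicles.

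Summing each member with its listed pseudogene rows, by name or by best match, changed the number of calls little. Reads that were dropped, or given to copies without a row, would not be in these sums. The part of shared reads in the calls was therefore not tested. Anagen against mixed follicles went from 22 called members to 23 or 22, epidermis against mixed follicles from 22 to 24 or 23, and epidermis against anagen follicles from 16 to 17 or 18. The 15 members more than 4-fold higher in mixed than in anagen follicles had a median of 9 copies (0 to 58), and the other members a median of 8. Mixed follicles also differed in cell types: 8 of 8 fibroblast genes summed to 893 to 1924 CPM, against 35.9 to 519 CPM in anagen follicles and 74.5 to 133 CPM in epidermis (Col1a1, Col3a1 and Lum at 0), besides the red blood cell genes given above. Immune genes summed to 65.9 to 167 CPM in mixed follicles, between the ranges of anagen follicles and epidermis. Their part in the result was not tested.

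Rpl22l1 (chr3:28805436-28807424), the paralog of Rpl22, was 376, 479 and 229 CPM in mixed follicles. It was 0.972, 4.603 and 1.54 CPM in anagen follicles and 4.26, 5.41 and 9.25 CPM in epidermis, so mixed follicles stood apart from both. The log2 fold changes were -7.82 ± 0.52, adjusted p = 7.3e-08 for anagen and -6.86 ± 0.51, adjusted p = 2.1e-07 for epidermis against mixed follicles. Both calls held in every alternative run. In organoids Rpl22l1 was 0 to 2.25 CPM unpassaged, 0.501 to 2.87 CPM early and 14.4, 9.70, 9.59, 5.21, 4.64 and 5.71 CPM late, where each late library was above each early one but the difference from early organoids with Fgf1 did not pass the test (1.70, adjusted p = 0.070). The pseudogene row Gm15421, whose best match is Rpl22l1, followed it at 22.4 to 64.2 CPM in mixed follicles.

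Its partner Rpl22 did not show this pattern. Rpl22 stood at 951, 1172 and 497 CPM in mixed follicles, 815, 1000.1 and 532 in anagen follicles and 1168, 1379 and 1265 in epidermis. Mixed follicles overlapped both other groups, while each epidermis library was above each anagen library. No difference passed the test (log2 fold changes of 0.20 with adjusted p = 0.69 for epidermis against anagen follicles, -0.68 with adjusted p = 0.29 for anagen and -0.48 with adjusted p = 0.32 for epidermis against mixed follicles).

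Rps4l, a processed copy of the Rps4 family (chr6:148354656-148355598, plus strand), was lowest in passaged organoids. It was 53.2, 50.03 and 53.6 CPM in epidermis, 35.5, 42.1 and 7.18 in anagen follicles and 20.8, 25.96 and 13.7 in mixed follicles. The 5 unpassaged organoid libraries held 24.5, 21.8, 22.4, 25.5 and 16.6 CPM. Of the 12 early libraries, the highest held 5.45 CPM and 6 held 0, and all 6 late libraries held 0. No passaged library reached the lowest unpassaged one, or the lowest tissue library.

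In counts, Rps4l had 183 in the unpassaged libraries (21.9 CPM over their summed total) and 16 in the early ones (0.774 CPM). Within the first set of files alone the early libraries had 7 counts (1.69 CPM), so the pooled level was 12.98 times higher unpassaged at an equal set of files. The fit that holds medium and set of files equal gave a log2 fold change of -3.45 ± 0.84, adjusted p = 0.13, which did not pass. The call was made by DESeq2 (adjusted p = 0.044) and in the fit of the first set alone (-3.60, adjusted p = 0.014), and over all alternatives its adjusted p ran from 5.3e-05 to 0.96, the latter without the Fgf1 library of early organoids in the first set. Late organoids had 0 counts, where 3 counts would be 0.457 CPM, and epidermis 91 counts (52.0 CPM), at least 114-fold higher. The fitted change of late organoids against epidermis (adjusted p = 3.3e-06) depends on the prior count. Early organoids with Fgf1 held 1.23 and 0.781 CPM, near that floor, so no fold against them is given.

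Its main counterpart Rps4x, on the X chromosome, was 4755, 5429 and 3716 CPM in epidermis, 1349, 1543 and 1105 in anagen and 1439, 1805 and 982 in mixed follicles. Late organoids held 1049.6, 1117, 1986, 2608, 2870.3 and 2795 CPM and early ones 879 to 1472 CPM. Epidermis was above every other group, but no comparison of Rps4x passed the test (1.25 with adjusted p = 0.062 for epidermis against anagen follicles, -0.90 with adjusted p = 0.13 for late organoids against epidermis). Tissue levels of Rps4l itself passed no test either (0.55 with adjusted p = 0.33 for epidermis against anagen follicles).

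Of the remaining paralogs, Rps27l, a p53 target related to Rps27, was 209, 226 and 157 CPM in epidermis and 158, 153, 156, 119.7, 52.6 and 68.6 CPM in late organoids (-0.58, adjusted p = 0.16). Rpl7l1, which acts in large-subunit assembly, was 31.1, 33.5 and 20.5 CPM in anagen and 54.4, 76.7 and 22.4 in mixed follicles and passed the test between them (log2 fold change -1.33 ± 0.34, adjusted p = 0.021), a call lost under 4 of 15 alternatives (library totals, and without anagen replicate 1 or 2 or mixed replicate 2). Rpl10l and Rpl39l, known mainly from the testis, reached 2.72 and 1.36 CPM at most. Their partners Rpl10 and Rpl39 were abundant: Rpl39 was 1959.9, 2678 and 1368 CPM in mixed follicles, 1130.2, 1057 and 929 in epidermis and 304 to 540.1 in early organoids. Over the lists, 4 of 6 listed tissue paralogs and 6 of 7 partners passed the filter. Between epidermis and anagen follicles 0 paralogs and 1 partner (Rpl3) were called. The backgrounds were 14.8% higher and 19.4% lower among all genes, and lists of 4 and 6 genes are too short to set against them.

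The P-stalk (Rplp0, Rplp1 and Rplp2) recruits the elongation factors to the ribosome. Rplp1 was 9252, 10312 and 9503 CPM in epidermis, 1938, 1915 and 1495 in anagen and 1661, 3292 and 1463 in mixed follicles. Epidermis was above both follicle groups (log2 fold change 1.89 ± 0.58, adjusted p = 0.017 against anagen follicles, a call lost without anagen replicate 1 or 2), while the difference from mixed follicles did not pass (1.13, adjusted p = 0.14). In late organoids Rplp1 split by replicate, with 2403, 2419, 2606, 7127, 7342 and 5415 CPM in replicates 1 to 6. Early organoids held 1086 to 1832 CPM, below every late library, yet the difference from early organoids with Fgf1 did not pass (1.35, adjusted p = 0.22).

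Rplp0, the scaffold of the stalk, was 2399, 2585 and 1756 CPM in epidermis, 467, 464 and 413 in anagen follicles and 1399.7, 1886 and 1205 in mixed follicles. It was lowest in anagen follicles, and both differences passed (log2 fold change 1.74 ± 0.43, adjusted p = 0.0048 for epidermis and -2.26 ± 0.44, adjusted p = 0.0031 for mixed follicles, the latter as anagen against mixed). Rplp2 was listed at 0 in the 3 anagen libraries, where the floor of 3 counts over the group is 0.543 CPM, and had 159 counts (25.9 CPM) in the mixed libraries. It was at least 47.8-fold higher in mixed follicles. In epidermis Rplp2 was 0, 2.70 and 0 CPM, a small part of the level of its binding partner Rplp1.

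Rpl5 and Rpl11 bind the 5S ribosomal RNA, and free of the ribosome they inhibit the p53 ubiquitin ligase Mdm2. Rpl5 was 4985, 6725 and 5757 CPM in epidermis, 3669, 4429.9 and 2944 in anagen follicles, 4512, 6025 and 2813 in mixed follicles and 1582, 1709, 2625, 3408, 3758 and 4825 in late organoids. Rpl11 was 2686, 3425 and 2817 CPM in epidermis, 3684, 2891 and 2673 in anagen follicles, 2232, 2459 and 1702 in mixed follicles and 1467, 1626, 1690.3, 2548, 3039 and 2470.3 in late organoids. Neither passed a test in the 8 comparisons. The difference between epidermis and anagen follicles was 0.12 (adjusted p = 0.89) for Rpl5 and -0.61 (adjusted p = 0.32) for Rpl11.

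Genes mutated in Diamond-Blackfan anaemia were counted as a list, and 18 of 20 passed the filter. Between epidermis and anagen follicles 4 of 18 were higher (22.2%, against 18.2% of all members and 14.8% of all genes) and 0 lower (median 0.62). Between anagen and mixed follicles 5 were lower in anagen (27.8%, against 28.6% of all members and 5.42% of all genes) and 0 higher (median -0.51). These shares lie near those of all members. Rps19, Rps15a and Rps20 were among the 4. In late against early organoids with Fgf1 3 were higher (16.7%, against 7.79% of all members and 1.5% of all genes), among them Rps19 and Rps15a, and 0 lower. Rps7, Rps10, Rps24, Rpl35a and Rpl15 of the same list passed no test in the tissue comparisons.

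Of 4 genes with mouse mutants of skin or skeleton, Rps19 and Rps20 (dark skin) were higher in epidermis than in anagen follicles, and Rpl24 (Belly spot and tail) and Rpl38 (Tail-short) did not pass. Rps20 was 5572, 5591 and 5424 CPM in epidermis, 1609, 1621 and 1128 in anagen follicles, 2792, 3871 and 1928 in mixed follicles and 3271, 3628, 2301, 4369.9, 3356 and 3435 in late organoids. Its epidermis libraries did not overlap with follicles (log2 fold change 1.40 ± 0.41, adjusted p = 0.014, a call lost with no filter on low counts). Rpl24 was 1941, 2349 and 2163 CPM in epidermis and 1330.2, 1605 and 1002 in anagen follicles (0.19, adjusted p = 0.76). Rpl38 was 1967, 1832 and 1404 CPM in epidermis and 2122, 3472 and 1443 in anagen follicles, where the groups overlapped (-0.92, adjusted p = 0.099).

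Late organoids were compared with sorted epidermis. Of 77 members, 1 was higher (Rps2) and 2 lower (Rps4l and Rps28) in late organoids, with backgrounds of 12.2% higher and 9.53% lower, and the median was -0.37 over members, also with Rps4l at its bound, and 0.04 over all genes. With library totals as the scale 0 were higher and 7 lower. Rps28 was 2933, 3111 and 1829.5 CPM in epidermis and 1192, 1219, 1344, 874, 964 and 1235 CPM in late organoids (log2 fold change -0.997 ± 0.34, adjusted p = 0.045). Rps2 was higher at log2 0.98 ± 0.34, adjusted p = 0.045, with late values of 843 to 2412 CPM that overlapped those of epidermis. Each of these calls was lost under 12 of 20 alternatives, among them no filter on low counts and leaving out epidermis replicate 1 or 2 or any 1 of late replicates 1 to 5. Rps19 stood lower in each late library than in each epidermis library but did not pass (-0.87, adjusted p = 0.081). Markers of cell types differed here too. Without overlap, immune genes summed to 376 to 719 CPM in epidermis and 12.4 to 194 CPM in late organoids, basal keratinocyte genes to 32024 to 34426 CPM in epidermis and 15910 to 31670 CPM in late organoids, and fibroblast genes to 74.5 to 133 CPM in epidermis and 322 to 1270 CPM in late organoids. By mean level Krt15, Col17a1, Dst, Itga6 and Trp63 were lower in late organoids than in epidermis. The other basal genes, Krt5 (12535 against 9970 CPM), Krt14 (9171 against 7424 CPM) and Itgb4 (106 against 105 CPM), were not. Of the fibroblast genes, Sparc (mean 564 CPM) and Fbln1 (127 CPM) led in late organoids. There Dcn had a median of 0, Lum was at 0, and Col1a1, Col1a2, Col3a1 and Pdgfra averaged at most 3.66 CPM. Differentiated keratinocyte genes overlapped, at 2154 to 2516 CPM in epidermis and 44.9 to 19377 CPM in late organoids. Their part was not tested.

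Within the late group, replicates 1 to 3 and 4 to 6 lay in different sets of files and differed for many members. In 23 of 77 members replicates 4 to 6 were all above replicates 1 to 3, against 7.51% of all genes, and in 9 they were all below, against 16.2%. Rps10 was 3.21 times, Rpsa 2.65 times, Rplp1 2.68 times and Rps19 1.90 times higher in replicates 4 to 6 by mean CPM, while Rpl37 (0.362 times), Rps15 (0.455 times) and Rpl22l1 (0.462 times) were lower. Whether this follows the set of files or the cultures cannot be told apart. Left out in turn, a choice made after seeing the data, replicates 4 to 6 moved the calls against epidermis to 1 higher and 18 lower, and replicates 1 to 3 to 0 higher and 2 lower.

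Late against early organoids in the same medium (forskolin with Fgf1) set passages 23 to 30 against passages 7 to 12. Of 77 members 6 were higher and 0 lower in late organoids, with backgrounds of 1.5% higher and 2.04% lower, and the median was 0.39 over members and 0.04 over all genes. Among the 6 were Rps19 (log2 2.88 ± 0.50, adjusted p = 0.0071), Rpl14 (2.46), Rps2 (2.33), Rpl36a (1.73) and Rps15a (1.52). For Rps2 the late libraries held 843 to 2412 CPM and the early ones 262 and 338 CPM, with no overlap. All 6 calls were lost when either of the early libraries was left out or when only these groups entered the fit. With library totals as the scale 3 of the calls were lost, among them those of Rpl36a and Rps15a. Early and late libraries share no set of files. Proliferation genes, 7 of 7 detected, summed to 513 to 4019 CPM in late and 871 to 1396 CPM in early organoids with Fgf1. Basal keratinocyte genes summed to 15910 to 31670 CPM in late and 44627 to 45133 CPM in early organoids with Fgf1. By mean level Krt5, Krt14 and Itgb4 were lower in late organoids, and the other basal genes were higher. Immune genes summed to 12.4 to 194 CPM in late and 7.03 to 8.62 CPM in early organoids with Fgf1. Their part was not tested.

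In epidermis against anagen follicles, which is part of the same fit, the genes named here had log2 fold changes of 3.10 (Rps19), 3.00 (Rpl14), 1.90 (Rps2), 1.08 (Rpl36a) and 2.64 (Rps15a), each past the test. Both comparisons set libraries of the later run of sample numbers against the earlier run, so their values are not independent of it. Mixed follicles, of the earlier run, had these genes at levels given above. Abundant members such as Rpl5 (0.03) and Rpl11 (-0.01) did not pass between late and early organoids.

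Passaging gave no call among the members and medium 1. In early against unpassaged organoids 0 of 75 members were called by edgeR (4 at an unadjusted p under 0.05, 1 by DESeq2), with backgrounds of 0.0501% higher and 0.03% lower, but 69 of 75 had a negative value (median -0.30 against -0.02 over all genes). Beside Rps4l, the lowest p belonged to Rpl13 (-0.54), Rps18 (-0.53) and Rps29 (-0.57). Of the early libraries, only replicate 1 with Fgf10 and replicate 1 with Fgf1 share the set of files of the unpassaged libraries. With the set of files as a term, the fitted change rests on them. No early library with the TGF-beta inhibitor is in that set. Without a term for the set of files 1 member was higher and 4 lower.

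With the TGF-beta inhibitor in place of Fgf10, both with forskolin, 72 of 74 members had a negative log2 fold change in early organoids (median -0.32 against 0.01 over all genes). Only Rps12 passed the test, and no member was higher, with backgrounds of 0.936% lower and 1.01% higher. Rps12, of the small-subunit beak, was 1323, 1281, 1283 and 1277 CPM with the inhibitor and 1895, 1975, 2304 and 1658 CPM with Fgf10. The libraries with the inhibitor lay below every one with Fgf10 (log2 fold change -0.76 ± 0.18, adjusted p = 0.047). The call was lost under 11 of 18 alternatives, among them library totals, no filter, a replicate block, no term for the set of files, the second set of files alone, and leaving out any 1 of replicates 1 to 3 of either medium. All 18 tested Diamond-Blackfan genes were negative as well, with 0 called. Proliferation genes were measured beside them, with 7 of 7 positive and 0 called, and their part was not tested.

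The sets of files could be compared within early organoids. With medium as a term, 0 of 74 members were called between the first and second set by edgeR (15 at an unadjusted p under 0.05, 3 by DESeq2), with backgrounds of 0.0436% higher and 0.0109% lower. The median was -0.17 over members and -0.02 over all genes. On the log2(CPM + 1) scale the largest difference of means was that of Rpl38, at 794 CPM in the first set and 1442 CPM in the second. Rpl4 had 5724 and 10140 CPM, Rpl41 3510 and 6094 CPM, and Rpl28 905 and 1457 CPM in the same order. Rpl27 (844 and 558 CPM) went the other way. Fitted values were -0.87 (adjusted p = 0.12) for Rpl4, -0.88 (adjusted p = 0.12) for Rpl41 and -0.77 (adjusted p = 0.21) for Rpl38. Rps19 had means of 117 CPM in the first set and 92.8 CPM in the second. Neither set holds a tissue library.

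**Figure D4:**
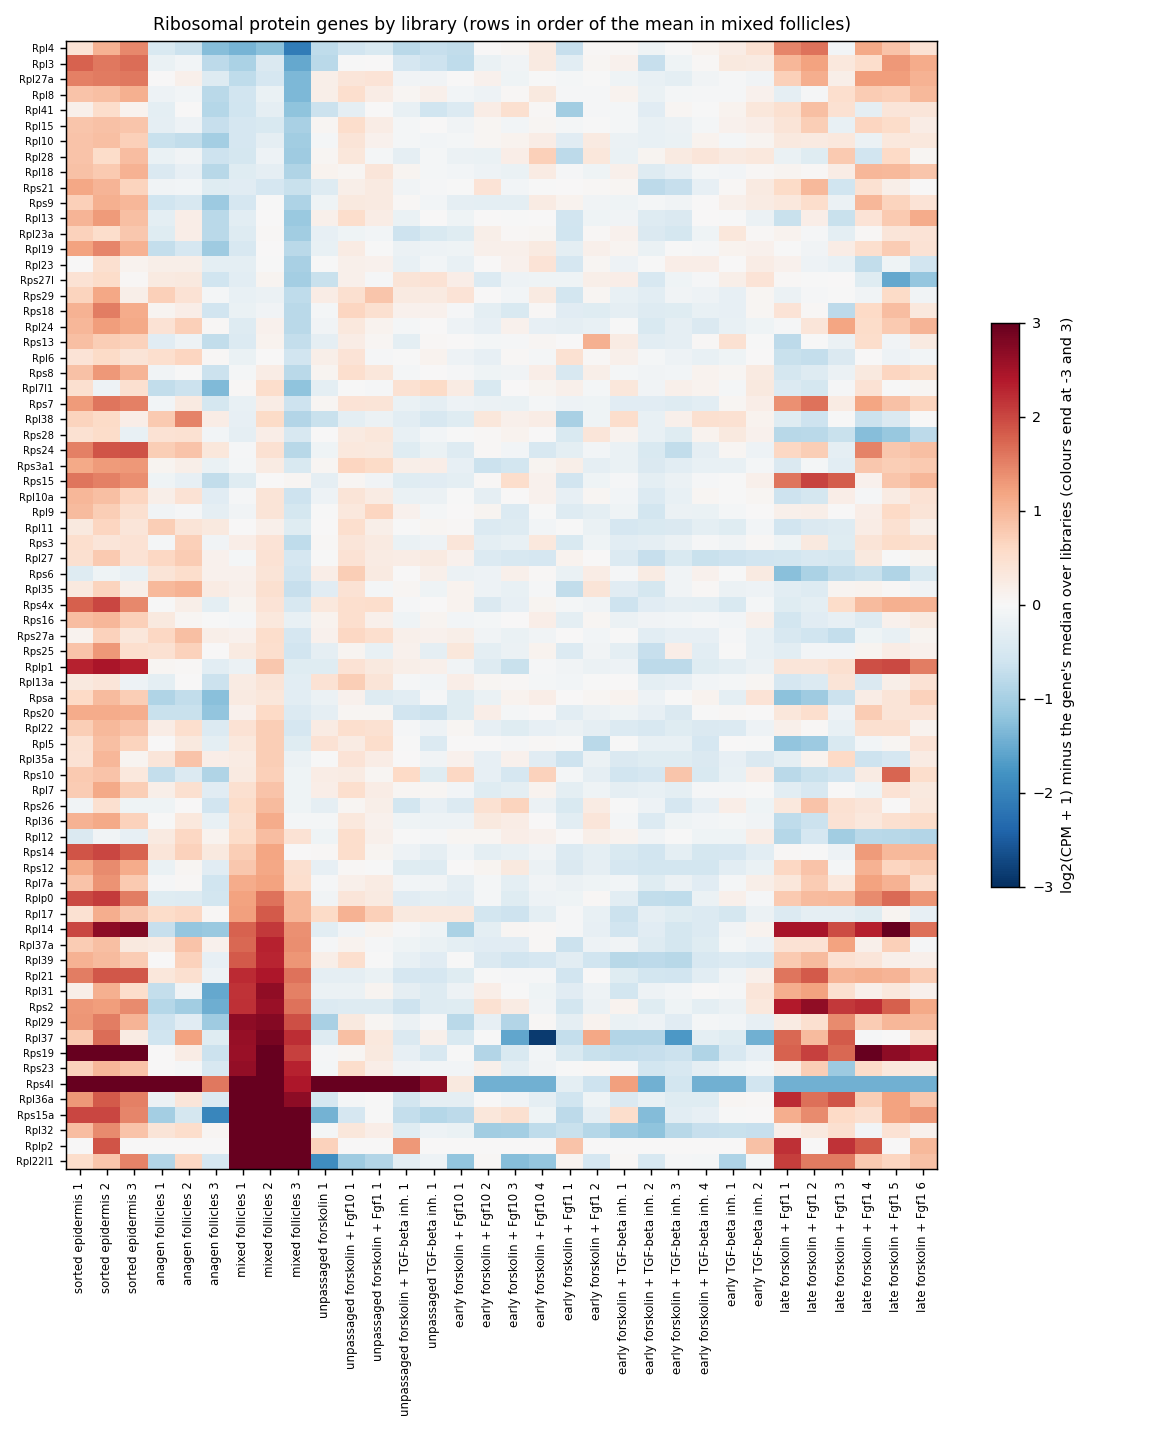
Level of 73 ribosomal protein genes (rows) in 32 libraries (columns), as log2(CPM + 1) minus the gene's median over libraries, with colours ending at -3 and 3. Rows are ordered by their relative mean in mixed follicles, and each gene shown reached at least 10 CPM in some library. Rpl22l1 and Rps15a are among the rows high in the 3 mixed follicle libraries.

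Other genes of the translation apparatus were counted from lists of known function. Other translation machinery (initiation and elongation factors, poly-A binding protein and related genes) had 16 tested genes. In epidermis against anagen follicles 1 was higher and 1 lower (median 0.28, backgrounds 14.8% higher and 19.4% lower). In epidermis against mixed follicles 5 were lower and 0 higher (median -0.40, backgrounds 18.5% lower and 11.9% higher). In anagen against mixed follicles 2 were lower and 0 higher (median -0.66, backgrounds 5.42% lower and 1.21% higher). Eef1a1, which brings transfer RNA to the ribosome, led them, at 5835 to 8587 CPM in mixed follicles and 488 to 982 CPM in anagen and epidermis (-4.08 for anagen and -4.15 for epidermis on the log2 scale). Tpt1 was lower as well (-2.04 and -1.93). In late organoids Eef2 (1.25) and Pabpc1 (1.30) were higher than in epidermis. Fau and Rps27a passed no test between these tissues.

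Ribosome biogenesis genes, which process and assemble ribosomal RNA, had 38 tested members. In epidermis against anagen follicles 2 were higher (5.26%, against 14.8% of all genes) and 7 lower (18.4%, against 19.4%), with a median of -0.34. Among the latter were Gar1 (-2.09), Wdr12 (-2.11), Nop56 (-1.86) and Polr1a (-1.64). In late against early organoids 1 of 38 was lower (2.63%, against 2.04% of all genes) and 0 higher, with 35 negative values and a median of -0.88. That gene was Nop56, a core protein of box C/D particles (log2 fold change -1.75 ± 0.47, adjusted p = 0.047). Mitochondrial ribosomal protein genes, tested for 77 members, had 14 higher (18.2%, against 14.8% of all genes) and 5 lower (6.49%, against 19.4%) in epidermis than in anagen follicles, with a median of 0.20. In late against early organoids 0 were higher and 5 lower (6.49%, against 2.04%), with a median of -0.31. The difference between these lists and the ribosomal proteins was not tested.

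What the members share beyond their names was examined at their promoters. In RefSeq promoters of GRCm38 (250 bases before to 50 after the start), 62 members matched. CCGGAAG, the letters of an ETS-family motif, occurred on either strand in 26 of 62 (41.9%) against 9.93% of 27025 genes. CTCTTTCC, which resembles the pyrimidine tract at the start of these messenger RNAs, occurred in 10 (16.1%) against 3.57%. TATAAA was found in 7 (11.3%) against 15.7%, and CACGTG in 6 (9.68%) against 8.09%. The members lie on 19 chromosomes. A match is a description of the letters and not a binding site.

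Over the 13 group means of log2(CPM + 1), the genes whose pattern was most like Rps19 were Cyp4b1 (Pearson r = 0.94), Col6a1 (0.91) and Lrrc61 (0.89) among other genes, and Rpl7a (0.97), Rps12 (0.97) and Rplp0 (0.96) among the members. For Rps4l they were Dnajb3 (0.97), Gstk1 (0.95) and Lipo1 (0.92), and among the members Rpl17 came closest (0.83). The search for Rps4l was added after its values were seen. All points share the libraries and their depth. The other genes were low, with their highest group means in epidermis. These were 73.3 CPM for Cyp4b1, 12.6 for Col6a1, 30.8 for Lrrc61, 12.9 for Dnajb3, 34.6 for Gstk1 and 11.4 for Lipo1. Cyp4b1, Col6a1, Dnajb3 and Lipo1 had means of 0 in some groups, so these correlations rest largely on few groups.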

How the data were processed

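Bulk RNA of 32 libraries was measured by CEL-seq2, per the labels' protocols. The submitters' processing notes name BWA 0.6.2-r126 and mm10. How reads were counted, on which annotation and whether by molecular identifier is not given in the sources used here. Per file, the authors deposited the counts of 1 library per gene row, and every value was whole. Absent gene rows were set to 0, and 14 spike-in rows entered neither totals nor tests. Library totals of 412582 to 3351435 counts set the precision, and intervals and floors of 3 counts cover counting error only.

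CPM were computed from these totals. Tests used edgeR 4.0.16 (R 4.3.3) with TMM factors, a low-count filter per group (filterByExpr, count 10, total 15), the quasi-likelihood test and Benjamini-Hochberg adjustment at 0.05 over all genes of the fit, and log2 fold changes are given ± the standard error. Tissue groups with early and late organoids in forskolin and Fgf1 were fitted together (17 libraries). Early against unpassaged organoids had terms for medium and set of files (16 libraries), and early organoids were fitted with medium and set of files (12 libraries). The unpassaged library in forskolin alone entered no comparison. DESeq2 1.42.0, other scalings, no filter, summed pseudogene rows, a replicate block and left-out libraries were alternatives. Copies were found with blastn (e-value 1e-10) against GENCODE M21 transcripts. Scripts were tested on simulated data, with Python 3.11.15, pandas 2.3.3 and scipy 1.17.1.

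The members, lists and tests were chosen with earlier results of these data known. Named were, per comparison, up to 6 called members in each direction with the largest change among those of at least median level, Rps19, Rpl22l1, the short lists of paralogs, partners, P-stalk, 5S RNA binders and mouse mutants, the 10 members differing most between the early sets of files, and up to 4 called genes each of other translation machinery and ribosome biogenesis. Members named outside this rule, among them Rpl14, Rps2, Rps15a, Rpl32, Rpl36a and the late-replicate and top-level examples, were chosen after their values were seen. Some genes that these rules name are not reported here, though they enter the fits and counts.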

Additional observations from a re-analysis of the deposited data

Results flagged for a closer look

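Among 87 sets of replicate values of named members or of their summed share, 5 held a replicate whose gap to the nearest other was large for the range of its group, where chance gives about 1 in 20. With forskolin and Fgf10 in early organoids, Rpl27 was 852 CPM in replicate 1 against 545 to 579 in the others. That replicate is the library of the first set of files. With forskolin and the TGF-beta inhibitor, replicate 4 was high for Rpl10 (4181 CPM against 3322 to 3462) and Rpl39 (393 CPM against 304 to 317), and replicate 1 for Rps12 (1323 CPM against 1277 to 1283). In late organoids Rpl10 was 3481 CPM in replicate 4 against 4702 to 4892.

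The share of counts held by ribosomal protein genes differed in sign between media when early libraries were set against the unpassaged one. Early minus unpassaged, it was -4.16 to -1.67 percentage points in 4 libraries with forskolin and Fgf10 and -4.15 to -1.05 points in 2 with forskolin and Fgf1, but 1.64 to 2.57 points in 2 with the TGF-beta inhibitor alone. The inhibitor with forskolin lay on both sides (-0.70 to 1.11 points). The differences between media, -4.97 points for Fgf10 and -4.71 points for Fgf1 against the inhibitor alone, were not tested, and each rests on 1 unpassaged library per medium. All unpassaged libraries are in the first set of files, as is 1 early library each with Fgf10 and with Fgf1 (the lowest in both media), while all early libraries with the inhibitor are in the second. Within the first set the early library held 12.3% against 16.5% unpassaged with Fgf10, and 10.9% against 15.1% with Fgf1, from 1 library each. With the inhibitor, passage and set of files cannot be told apart. In the difference between media, medium and set of files therefore cannot be told apart either.

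Rps4l was 24.5 CPM in the unpassaged library with forskolin alone, which has no passaged partner and entered no comparison. The other 4 unpassaged libraries held 16.6 to 25.5 CPM.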

How the results depend on the processing

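Counts of called ribosomal protein genes depended on scale and tool. Epidermis against anagen follicles gave 16, but 32 with library totals, 9 with no filter and 30 by DESeq2. Late organoids against epidermis gave 3, but 7 with library totals, 1 with no filter, 9 by DESeq2 and 19 without late replicates 4 to 6. Late against early organoids gave 6, but 3 with library totals, 20 by DESeq2, 0 with only these groups fitted and 11 with all passaged organoids. Early against unpassaged organoids gave 0, but 1 with no filter, 1 by DESeq2, 5 without the set of files as a term and 1 in the set of the unpassaged libraries. The TGF-beta inhibitor against Fgf10 gave 1, but 0 with library totals, with no filter, without the set of files as a term and in the second set alone, and 2 by DESeq2. Between the early sets of files DESeq2 gave 3 in place of 0. The causes were not tested.

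With 1 library left out, counts ran from 11 to 19 for epidermis against anagen follicles, 18 to 19 against mixed follicles, 18 to 23 for anagen against mixed follicles, 1 to 3 for late organoids against epidermis, 0 to 8 against early organoids, 0 to 1 for the inhibitor, and 0 to 0 for passage and for the early sets of files.

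Replicate numbers did not pair the samples: in no comparison with 3 or more pairs did every pair's deviations correlate above 0.1, though between epidermis and mixed follicles each of 3 samples correlated best with its own number (0.017 to 0.029). With a replicate block the counts were 23 for epidermis against anagen follicles, 24 against mixed follicles, 25 for anagen against mixed follicles, 20 for late organoids against epidermis, 10 against early organoids and 0 for passage, the inhibitor and the early sets of files.

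As a share of member counts in place of CPM, the log2 ratio of epidermis to anagen follicles fell from 3.60 to 2.62 for Rps19 and from 0.89 to -0.011 for Rps4l. Rpl7a, lower in epidermis than in mixed follicles (-1.02), turned to 0.053 with library totals (adjusted p = 0.93). Of the values of single members under the alternatives, 1160 stayed on their side of the threshold, 159 lost and 13 gained a call and 1 reversed. Depth limits members under about 10 counts, such as Rps27 and Rpl26, for which no test was made.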

Other observations

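Rpsa, which also serves as a laminin receptor, was 6553, 8340.4 and 7252 CPM in epidermis, 2323, 2615 and 1809.6 in anagen follicles, 5206, 5505 and 3504 in mixed follicles and 1858, 2082, 2780.1, 5067, 5688 and 7030.0 in late organoids. Late replicates thus spanned the range from anagen follicles to epidermis. Rps10 reached 422, 468, 495, 877, 2494 and 1071 CPM in the late libraries against 1281, 1349.5 and 916 CPM in epidermis, so replicate 5 was above every epidermis library. Rps24 was 3301, 4239 and 4332 CPM in epidermis and 687 to 1196 CPM in the 12 early libraries, with late libraries at 953 to 3204 CPM. These genes were chosen after their values were seen, and no explanation was tested.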
